A study of Mus musculus with 30 samples.

Results

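The 55 genes described here encode ion channel subunits of neurons, and were taken as a given list of gene symbols matched to Ensembl identifiers, out of 49315 genes in the table. They comprise 7 sodium, 15 calcium, 30 potassium and 3 HCN channel genes. Hippocampal RNA was sequenced in mice lacking TIMP2, a secreted inhibitor of matrix metalloproteinases, and in their WT littermates. The TIMP2 KO group held 13 mice, 6 male and 7 female, and the WT group 17 mice, 10 male and 7 female, all labelled C57BL/6J and untreated. The knockout is constitutive and present in every cell of the body, the WT mice carry no modified allele, and the labels give no age. Mice were in general 2 to 3 or 5 to 6 months old, and which of these ages applies to the sequenced mice is not given in the sources used here. Each mouse gave 1 library, and the spread between mice is therefore the error of every comparison. The question asked of the data was whether loss of TIMP2 was accompanied by a change in the mRNA of channels that set neuronal excitability.

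Voltage-gated channels open and close as the membrane potential changes. Sodium channels carry the upstroke of the action potential, calcium channels couple depolarization to transmitter release and gene expression, potassium channels repolarize the membrane and limit repetitive firing, and HCN channels carry a current that is activated by hyperpolarization and helps to set the resting potential. The pore is formed by an alpha subunit, and auxiliary beta, alpha2delta or cytoplasmic subunits control how many channels reach the surface and how they gate. The label does not hold for every gene of the list. The SK subunits (Kcnn1, Kcnn2, Kcnn3) are opened by calcium, the GIRK subunits (Kcnj3, Kcnj6, Kcnj9) are inward rectifiers opened by G proteins, and the genes for beta, alpha2delta and KChIP proteins encode partners of a pore and no pore of their own.

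All 55 genes passed the filter on low counts that left 16486 genes for testing, and the lowest count of any of them in any mouse was 32. Between 18345517 and 41081083 reads were counted per TIMP2 KO mouse and between 19445246 and 32098386 per WT mouse, of which the 55 genes took 0.686% to 0.770%. Timp2 itself was lower in every TIMP2 KO mouse (130.0 to 171 CPM, read counts scaled for library size) than in any WT mouse (256 to 380 CPM), with a log2 fold change of -0.999 ± 0.053 (SE, adjusted p = 7.62e-16, edgeR's quasi-likelihood test); whether the counted reads lie within the deleted stretch was not examined. Of the marker lists of hippocampal cells, 12 of 12 dentate granule cell, 8 of 8 CA1 pyramidal cell and 10 of 10 CA3 and CA2 pyramidal cell genes passed the filter, but so did 8 of 8 striatum, 8 of 8 neocortex and 11 of 12 thalamus and habenula genes. The summed level over all mice was 814 to 1054 CPM for the CA1 list and 420 to 575 CPM for the CA3 and CA2 list, and 137 to 165, 165 to 195 and 231 to 281 CPM for the thalamus and habenula, striatum and neocortex lists. Several libraries stood apart in the choroid plexus marker Ttr. It reached 63.7, 82.4, 123 and 636 CPM in TIMP2 KO replicates 10, 1, 3 and 6 and 36.6 CPM in WT replicate 13, against at most 13.6 CPM in the other 25 mice, and 3 of the 4 choroid plexus markers that passed the filter, of 9 listed, were higher in TIMP2 KO mice at an unadjusted p under 0.05. Their summed level was 127 to 1109 CPM in TIMP2 KO and 122 to 173 CPM in WT mice. For this reason the counts of channel genes by genotype, within each sex, between the sexes and for the interaction of sex and genotype are also given without these 5 mice. TIMP2 KO replicate 9, a male, had the highest level of the 16 males for 16 of the 55 channel genes, among them Scn4b, Cacna1h and Kcnj6. It also had the lowest level of the males for Kcnc4, Kcnd3, Kcnip3, Hcn3 and Kcnj9. The share of all genes with such an extreme in this mouse is not given here. Values that change without this mouse are given beside the results.

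The levels of the channel genes in WT hippocampi spanned more than 2 orders of magnitude when expressed per length, as CPM per kilobase of annotated exon. Kcnab2, a cytoplasmic beta subunit of Kv1 channels, had the highest level (157 ± 6.47 CPM per kb, SD, n = 17, with a range of 141 to 167). It was followed by the sodium channel beta subunit Scn2b (67.4 ± 2.48), the calcium channel beta subunit Cacnb3 (59.2 ± 2.33), the KChIP Kcnip2 (58.7 ± 2.89), the sodium channel beta subunit Scn3b (57.2 ± 3.36) and Hcn2 (48.7 ± 2.72), all in CPM per kb. Of the 6 highest genes, Hcn2 was the one that forms a pore. The pore-forming genes with the next levels were Kcnd2 (31.4 ± 1.75 CPM per kb), the main A-type potassium channel of pyramidal cell dendrites, and the GIRK subunit Kcnj3 (31.0 ± 2.37 CPM per kb).

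At the other end of the order stood Kcnb2 (1.82 ± 0.19 CPM per kb), a delayed rectifier subunit, the EAG family member Kcnh5 (1.33 ± 0.18) and Hcn4 (0.30 ± 0.06), the HCN subunit best known as the pacemaker channel of the heart. Among the alpha subunits of sodium channels the order was Scn2a (26.2 ± 1.70 CPM per kb), Scn8a (21.9 ± 1.94), Scn1a (9.43 ± 0.63) and Scn3a (4.63 ± 0.38), and the ranges of Scn2a and Scn8a overlapped. Scn2a and Scn8a are the channels of the axon initial segment of excitatory neurons, Scn1a is known for its role in inhibitory interneurons, and Scn3a is best known from the developing brain. Among the alpha1 subunits of calcium channels, Cacna1e (12.3 ± 1.83 CPM per kb) headed the order and Cacna1d (3.09 ± 0.23) closed it. Of the 54 pairs of neighbours in the order of all 55 genes, 50 overlapped in their range over the 17 WT mice, so the exact rank of most genes was not resolved. The pairs that did not overlap were Kcnab2 and Scn2b, Hcn2 and Kcnd2, Kcnn1 and Cacna1d, and Kcnh5 and Hcn4.

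**Figure D1:**
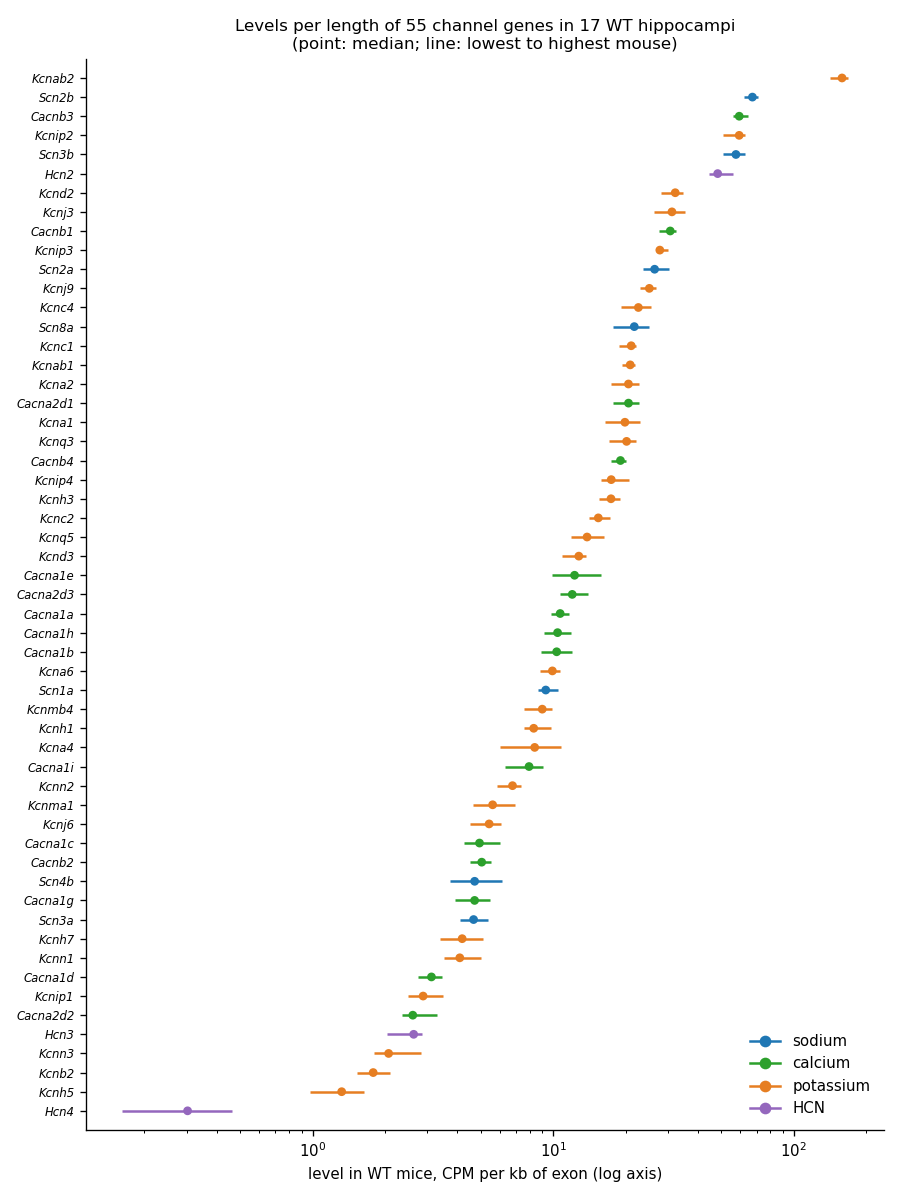
Level of each of the 55 channel genes in 17 WT hippocampi, in CPM per kb of exon on a log axis. The point is the median and the line runs from the lowest to the highest mouse. Kcnab2 lies between 141 and 167 CPM per kb and Hcn4 between 0.16 and 0.46 CPM per kb, and most neighbours overlap.

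The spread between WT mice was small. The SD of log2 CPM over the 17 WT mice had a median of 0.11 for the channel genes and 0.12 for all genes tested. It was smallest for Kcnip3 (0.04), a calcium-binding KChIP that also acts as a transcriptional repressor, and Kcnab1 (0.05), and largest for Hcn4 (0.31), Cacna1e (0.21), Kcna4 (0.21), Kcnh5 (0.20) and Kcnh7 (0.20).

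When TIMP2 KO and WT hippocampi were compared, 2 of the 55 channel genes (3.64%) had an unadjusted p under 0.05, the threshold of the study, against 5.03% of all genes tested. The sodium channel gene Scn3a was lower and the SK channel gene Kcnn1 was higher in TIMP2 KO mice. By direction, 1 of 55 (1.82%) was lower against 2.56% of all genes, and 1 of 55 (1.82%) was higher against 2.47%. No channel gene (0 of 55) had an adjusted p under 0.05 in edgeR's quasi-likelihood test, as against 0.0546% of all genes, and the count was 0 with DESeq2 and with limma voom too. The smallest adjusted p in edgeR was 0.882. The groups of mice did not overlap for 0 of the 55 genes, against 0.0121% of all genes. Without TIMP2 KO replicate 9, 5 of 55 genes were lower (Scn3a, Scn3b, Kcnab1, Kcnd2 and Kcnj3, against 2.98% of all genes) and Kcnn1 was again the 1 gene that was higher (2.62%).

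The fitted differences were small and their errors were narrow. The log2 fold changes lay between -0.10 and 0.09, with a median absolute value of 0.026 against 0.031 for all genes tested. Their 95% confidence intervals had a median half-width of 0.072 on the log2 scale. The interval lay within ±0.1 (a change of 7.2% upwards) for 24 genes, within ±0.2 for 53 genes and within ±0.3 for all 55. The 2 genes whose interval reached past ±0.2 were Kcnh5 (-0.096 to 0.21) and Hcn4 (-0.12 to 0.29), which had the lowest counts. Differences larger than these bounds lay outside the intervals, and smaller ones were not resolved with these mice.

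The fitted difference was below 0 for 40 of the 55 genes, against 49.8% of all genes tested, with a median log2 fold change of -0.010 against 0.0. Without the 5 mice with high Ttr (9 TIMP2 KO and 16 WT mice remained) it was below 0 for 24 of 55, with a median of 0.002. The share of all genes below 0 in that comparison is not given here. Scn3a and Kcnn1 remained the 2 genes with an unadjusted p under 0.05 in it, 1 lower against 2.29% of all genes and 1 higher against 2.10%. The fitted differences were thus no longer mostly below 0 without these libraries. Among the mice left out, TIMP2 KO replicates 1, 3 and 6 were also early in the order of the samples, with which channel genes moved (see Other observations). The parts of choroid plexus tissue and of this order were not tested.

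**Figure D2:**
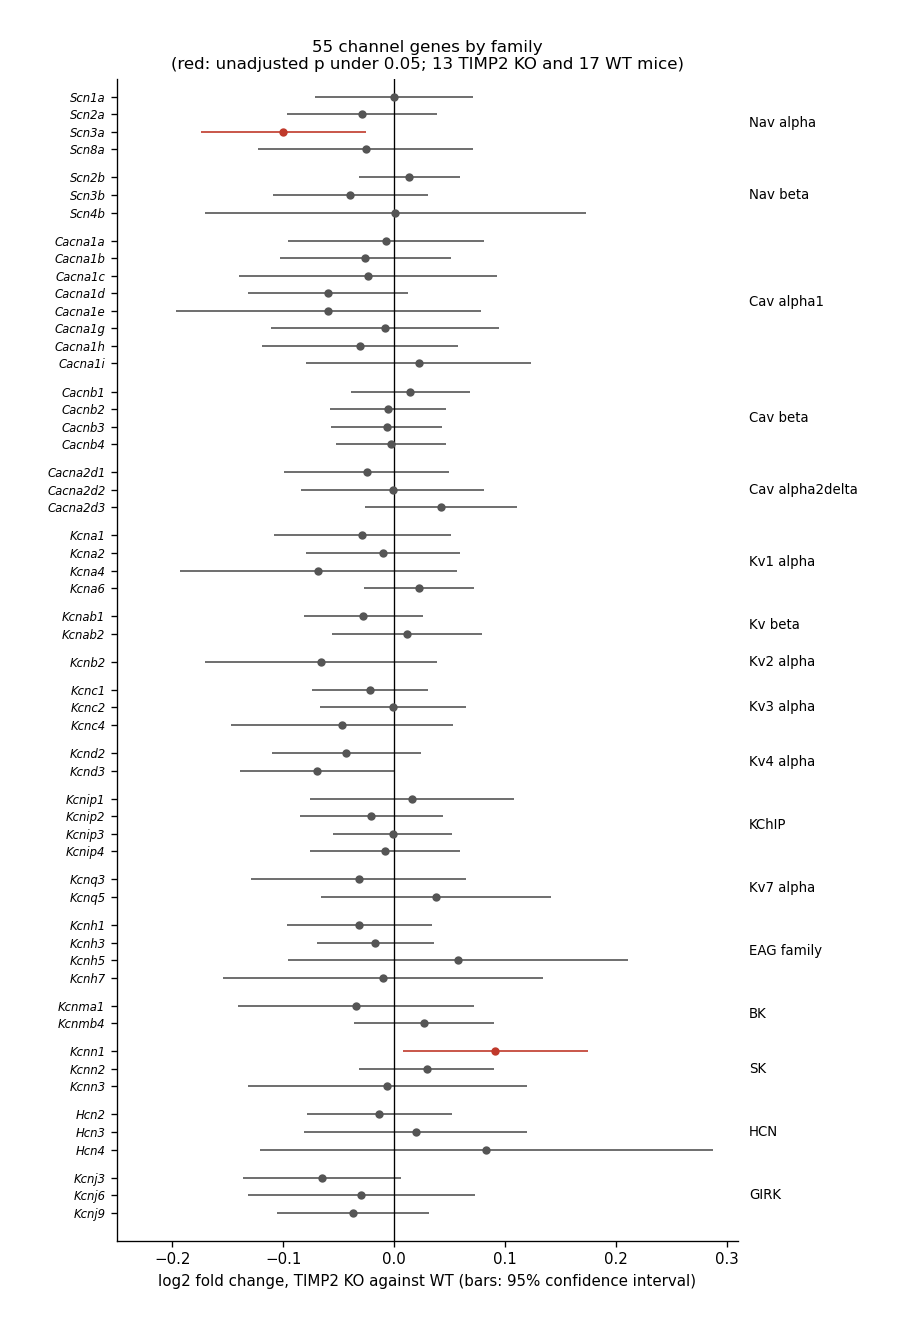
Log2 fold change of TIMP2 KO against WT for the 55 channel genes, ordered by family, with 95% confidence intervals over 13 TIMP2 KO and 17 WT mice. Scn3a and Kcnn1 (red) have an unadjusted p under 0.05, and the interval of each of the other 53 genes includes 0.

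Of the 7 sodium channel genes, 1 was lower and 0 were higher, with a median log2 fold change of -0.026. Scn3a (ENSMUSG00000057182) is found at chr2:65457118-65567627 (GRCm38, minus strand), and its exons overlap no other annotated exon. Its level was 49.5 to 59.0 CPM in TIMP2 KO mice, with a median of 54.7, and 51.0 to 67.0 CPM in WT mice, with a median of 58.2. The ranges overlapped broadly, but 11 of 13 TIMP2 KO mice lay below the WT median. The means were 53.9 ± 3.23 CPM (SD, n = 13) and 57.7 ± 4.70 CPM (SD, n = 17). This amounted to a log2 fold change of -0.10 ± 0.04 (SE, 95% interval -0.17 to -0.026), with an unadjusted p of 0.00989 and an adjusted p of 0.882 in edgeR's quasi-likelihood test. A two-sided permutation test of the mean log2 CPM gave p = 0.0190.

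The call of Scn3a did not rest on a single mouse. Its unadjusted p lay between 0.00418 and 0.0204 when each of the 30 mice was left out in turn, and it was 0.0242 without the 5 mice with high Ttr. The markers of dentate granule cells moved in the same direction: 5 of 12 (Prox1, Dsp, Tdo2, Dock10 and Stxbp6) were lower in TIMP2 KO mice at an unadjusted p under 0.05, with a median log2 fold change of -0.11 for the 12 and a summed level of 599 to 802 CPM in TIMP2 KO and 678 to 1023 CPM in WT mice. Their part in the difference of Scn3a was not tested. In bulk tissue, fewer cells of a type and less RNA per cell cannot be told apart.

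The other alpha subunits had fitted differences close to 0. Scn1a was at 105 ± 7.87 CPM in TIMP2 KO and 105 ± 7.05 CPM in WT mice, and the log2 fold changes of Scn2a (-0.029 ± 0.033, SE) and Scn8a (-0.026 ± 0.048) were within their errors. The beta subunits traffic and anchor the alpha subunits. Scn2b had a log2 fold change of 0.013 ± 0.022, Scn3b of -0.040 ± 0.034 and Scn4b, the beta subunit of resurgent current, of 0.0011 ± 0.085. Scn4b was the least precise of the 7, with 24.0 ± 6.08 CPM in TIMP2 KO and 24.1 ± 3.00 CPM in WT mice. TIMP2 KO replicate 9 was at 42.6 CPM, and without it the log2 fold change of Scn4b was -0.099.

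None of the 15 calcium channel genes passed the unadjusted threshold, and 12 of them had a fitted difference below 0, with a median of -0.007. Among the 8 alpha1 subunits, the largest differences were those of Cacna1d, an L-type channel that opens at comparatively negative potentials (37.4 ± 2.29 CPM in TIMP2 KO and 39.0 ± 2.85 CPM in WT mice, log2 fold change -0.060 ± 0.036, unadjusted p = 0.103, edgeR's quasi-likelihood test), and Cacna1e, the R-type channel (-0.059 ± 0.068). The P/Q-type channel Cacna1a (-0.0074 ± 0.044) and the N-type channel Cacna1b (-0.026 ± 0.038), which trigger transmitter release, were within their errors. So were the T-type channels Cacna1g (-0.0083 ± 0.051), Cacna1h (-0.031 ± 0.043) and Cacna1i (0.022 ± 0.050), which support burst firing. The 4 beta subunits, which bring alpha1 subunits to the membrane, were among the most precisely measured genes and had log2 fold changes between -0.007 and 0.014. Cacnb3 was at 236 ± 12.7 CPM in TIMP2 KO and 237 ± 9.34 CPM in WT mice, with a 95% interval of -0.057 to 0.043 on the log2 scale. The alpha2delta subunits, extracellular partners that include the targets of gabapentinoid drugs, had log2 fold changes of -0.025 (Cacna2d1), -0.0015 (Cacna2d2) and 0.042 (Cacna2d3).

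Of the 30 potassium channel genes, 0 were lower and 1 was higher, and 22 had a fitted difference below 0, with a median of -0.019. The Kv1 subunits, low-threshold channels of axons, had log2 fold changes of -0.029 ± 0.039 (Kcna1), -0.010 ± 0.034 (Kcna2), -0.069 ± 0.062 (Kcna4) and 0.022 ± 0.024 (Kcna6). Their beta partners Kcnab1 (-0.028 ± 0.026) and Kcnab2 (0.011 ± 0.033) and the delayed rectifier Kcnb2 (-0.066 ± 0.052) were likewise not called. The Kv3 subunits, which allow fast firing of interneurons, lay between -0.047 (Kcnc4) and -0.0011 (Kcnc2).

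The closest to the threshold among the potassium channel genes without a call was Kcnd3, an alpha subunit of the A-type current. It was at 116 ± 9.04 CPM in TIMP2 KO and 122 ± 6.86 CPM in WT mice, with a log2 fold change of -0.070 ± 0.034 and an unadjusted p of 0.0502 in edgeR's quasi-likelihood test. The lowest mouse was TIMP2 KO replicate 9, at 93.7 CPM. Kcnd2, the other alpha subunit of this current, had 157 ± 12.2 and 162 ± 9.01 CPM (-0.043 ± 0.033). The 4 KChIP genes, whose products bind these subunits, lay between -0.021 and 0.016. The Kv7 subunits of the M-current, Kcnq3 (-0.032 ± 0.048) and Kcnq5 (0.037 ± 0.051), had differences of opposite sign, both within their errors. The EAG family lay between -0.031 (Kcnh1) and 0.058 (Kcnh5). The large-conductance calcium-activated channel Kcnma1 had a log2 fold change of -0.034 ± 0.052, and its neuronal beta subunit Kcnmb4 one of 0.027 ± 0.031.

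Kcnn1 (ENSMUSG00000002908), an SK channel that contributes to the afterhyperpolarization, is found at chr8:70842049-70863258 (GRCm38, minus strand). Its level was 17.4 to 22.5 CPM in TIMP2 KO mice, with a median of 20.5, and 16.2 to 22.9 CPM in WT mice, with a median of 18.8. Of the TIMP2 KO mice, 11 of 13 lay above the WT median, although the highest WT mouse exceeded all of them. The means were 20.2 ± 1.41 CPM (SD, n = 13) and 18.9 ± 1.69 CPM (SD, n = 17). The log2 fold change was 0.091 ± 0.041 (SE, 95% interval 0.0075 to 0.17), with an unadjusted p of 0.0335 and an adjusted p of 0.952 in edgeR's quasi-likelihood test. A two-sided permutation test gave p = 0.0388.

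This call was less firm than that of Scn3a. The unadjusted p of Kcnn1 lay between 0.0510 and 0.0697 when TIMP2 KO replicate 4, 5, 10 or 12 or WT replicate 3, 9 or 17 was left out, and it was 0.0127 without the 5 mice with high Ttr. Of the exon bases of Kcnn1, 2.88% are shared with A230052G05Rik on the opposite strand, and the strand setting of the counting is not given in the sources used here. The other SK genes had log2 fold changes of 0.029 ± 0.030 (Kcnn2) and -0.0065 ± 0.062 (Kcnn3).

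The promoters of Kcnn1 are shown as those of a called gene, at the 2 start sites that RefSeq (GRCm38.p6) gives. Scn3a was not matched. Each stretch runs 5' to 3' from 250 bases before to 50 bases after the start, in lower case, with every GGGCGG on either strand (the GC box, read as CCGCCC on the other strand) in capitals.

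Kcnn1, chr8:70863209-70863508, minus strand: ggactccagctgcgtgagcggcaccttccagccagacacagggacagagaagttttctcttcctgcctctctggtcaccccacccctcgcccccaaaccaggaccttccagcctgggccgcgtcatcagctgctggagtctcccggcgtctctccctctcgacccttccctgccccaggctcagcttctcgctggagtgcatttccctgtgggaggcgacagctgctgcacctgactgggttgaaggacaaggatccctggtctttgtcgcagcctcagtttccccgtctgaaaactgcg
Kcnn1, chr8:70856959-70857258, minus strand: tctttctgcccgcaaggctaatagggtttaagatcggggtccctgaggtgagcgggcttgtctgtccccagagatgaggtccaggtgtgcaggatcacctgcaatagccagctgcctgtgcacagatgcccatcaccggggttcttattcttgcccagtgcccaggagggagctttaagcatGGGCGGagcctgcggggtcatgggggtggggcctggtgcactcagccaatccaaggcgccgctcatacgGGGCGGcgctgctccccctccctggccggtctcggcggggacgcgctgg

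The upstream start held no GC box and had a GC content of 62.3%, and the downstream start held 2 GC boxes at 64.3%. A promoter was listed for 44 of the 55 genes, with 69 start sites in all. These were richer in GC than the promoters of the whole table (median 62.3% against 52.7% over 32851 promoters). GGGCGG on either strand was found in 47.8% of the channel promoters and 35.7% of all promoters, TATAAA on either strand in 5.80% and 13.6%, and the cyclic AMP response element TGACGTCA in 0 of 69 and 1.79%. These shares are descriptions of the letters in the window.

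The 3 GIRK subunits, which hyperpolarize neurons downstream of G protein-coupled receptors, all had fitted differences below 0 and none was called. Kcnj3 was at 154 ± 9.15 CPM in TIMP2 KO and 162 ± 12.3 CPM in WT mice (log2 fold change -0.065 ± 0.035, unadjusted p = 0.0712, edgeR's quasi-likelihood test). Kcnj6 (-0.030 ± 0.050) and Kcnj9 (-0.037 ± 0.034) were within about their errors. The 3 HCN genes were not called either. Hcn2 was at 154 ± 11.0 and 155 ± 8.69 CPM (-0.014 ± 0.032), Hcn3 had a log2 fold change of 0.019 ± 0.050 and Hcn4 one of 0.083 ± 0.10.

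The make-up of the channel genes by class was nearly the same in both genotypes. Of the summed level per length of the 55 genes, potassium channel genes took 56.8% ± 0.49 in the 13 TIMP2 KO mice and 56.9% ± 0.32 in the 17 WT mice (mean ± SD). Calcium channel genes took 20.2% ± 0.41 and 20.2% ± 0.33, sodium channel genes 18.05% ± 0.31 and 18.1% ± 0.35, and HCN genes 4.88% ± 0.31 and 4.87% ± 0.31. Each difference was smaller than the spread between mice.

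The 3 channel genes on chromosome 11, which carries Timp2, were Cacnb1, Cacna1g and Kcnip1, at 20.3, 23.8 and 84.3 Mb from it. Their log2 fold changes were 0.014 ± 0.026, -0.0083 ± 0.051 and 0.016 ± 0.045, and none was called.

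Males and females were then examined apart. In females (7 TIMP2 KO and 7 WT), 7 of 55 channel genes (12.7%) were lower at an unadjusted p under 0.05, against 2.67% of all genes, and 0 were higher, against 2.33%. In males (6 TIMP2 KO and 10 WT), 1 of 55 (1.82%) was lower, against 1.62%, and 0 were higher, against 1.62%. The 7 genes in females were Scn3a, Scn3b, Cacna1d, Cacna1h, Kcnd2, Kcnj3 and Kcnj6, that is a sodium channel alpha and beta subunit, an L-type and a T-type calcium channel, an A-type potassium channel and 2 of the 3 GIRK subunits. The adjusted p of these 7 genes in edgeR's quasi-likelihood test was 0.770 or higher. The female groups were not balanced over the order of the samples, with which channel genes moved (see Other observations). Replicates 1 to 6 held TIMP2 KO females 2, 3, 4 and 6 but only WT females 2 and 5. The part of this order in the 7 calls was not tested. The median log2 fold change of the 55 genes was -0.021 in females, where 36 were below 0, against 49.25% of all genes. It was -0.001 in males, where 28 were below 0, against 50.07% of all genes.

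The count in females was smaller without the libraries with high Ttr. Without TIMP2 KO replicates 3 and 6, which left 5 TIMP2 KO and 7 WT females, 3 of 55 genes were lower (Scn3a, Cacna1d and Kcna4, against 2.04% of all genes) and 0 were higher (1.60%). In males without the 3 mice with high Ttr, 2 genes were lower (Kcnj9 and Kcnip3, against 1.45%) and 2 were higher (Kcnn1 and Kcnj6, against 1.64%). TIMP2 KO replicates 3 and 6 were also early in the order of the samples, and fewer mice resolve less. The parts of choroid plexus in the dissected tissue and of this order in these differences were not tested.

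Of the 7 genes called in females, Scn3a had the largest difference. Its level was 49.5 to 58.4 CPM with a median of 52.1 in TIMP2 KO females and 52.6 to 67.0 CPM with a median of 60.5 in WT females, and 7 of 7 TIMP2 KO females lay below the WT female median. The log2 fold change was -0.18 ± 0.050 in females and -0.035 ± 0.046 in males, where TIMP2 KO mice were at 50.5 to 59.0 and WT mice at 51.0 to 61.5 CPM. The exact two-sided permutation test gave p = 0.0140 in females and p = 0.519 in males. The difference between the sexes, tested as an interaction of sex and genotype, was -0.14 ± 0.071 on the log2 scale with an unadjusted p of 0.0520 in edgeR's quasi-likelihood test, so the difference was not shown to differ between the sexes.

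The other 6 genes had smaller differences in females. Cacna1d was at 33.9 to 39.7 CPM (median 36.3) in TIMP2 KO females and 37.3 to 43.4 CPM (median 40.4) in WT females, and Scn3b at 278 to 309 CPM (median 297) and 287 to 338 CPM (median 314). Cacna1h was at 88.3 to 107 CPM (median 98.2) and 96.3 to 116 CPM (median 112). For each of these 3 genes 7 of 7 TIMP2 KO females lay below the WT female median, with overlapping ranges. Kcnd2 had 140 to 160 and 152 to 172 CPM, and Kcnj3 140 to 166 and 148 to 184 CPM. The exact two-sided permutation test gave p = 0.0315 for Cacna1d, 0.0390 for Kcnd2, 0.0455 for Scn3b and 0.0472 for Cacna1h, but 0.0734 for Kcnj6 and 0.0967 for Kcnj3. In males the same test gave p between 0.313 and 0.952 for these 6 genes.

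**Figure D3:**
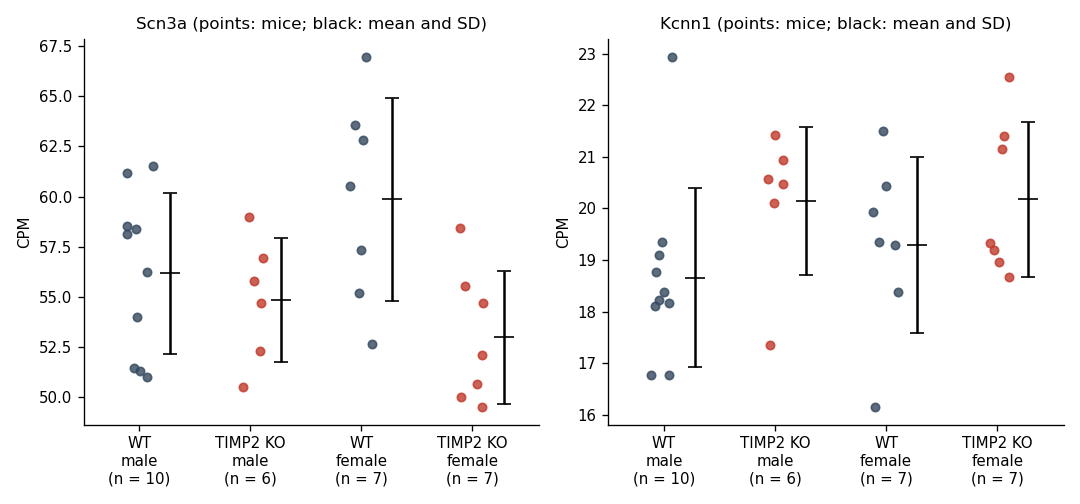
CPM of Scn3a and Kcnn1 in each mouse, by genotype and sex, with mean and SD. The TIMP2 KO females have the lowest mean of Scn3a (53.0 CPM) and the WT females the highest (59.9 CPM), while Kcnn1 has means of 20.2 CPM in both TIMP2 KO groups against 18.7 CPM in WT males and 19.3 CPM in WT females.

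The interaction had an unadjusted p under 0.05 for 3 of 55 channel genes (5.45%), against 2.57% of all genes, and for 0 of 55 after adjustment in edgeR's quasi-likelihood test. The genes were Kcnj6, Kcnj9 and Cacna1h. Kcnj6, a GIRK subunit, was at 33.6 to 43.2 CPM in TIMP2 KO females (median 37.0) and 35.6 to 46.5 in WT females (median 41.4), but at 35.4 to 52.5 in TIMP2 KO males (median 42.2) and 34.4 to 44.5 in WT males (median 40.3). Its medians were thus in opposite order in the sexes, with overlapping ranges throughout. The value of 52.5 CPM was that of TIMP2 KO replicate 9, and the other TIMP2 KO males lay between 35.4 and 43.4 CPM. Cacna1h was likewise at 130.1 CPM in this mouse and at 91.9 to 104 CPM in the other TIMP2 KO males. Kcnj9, which assembles with other GIRK subunits, was at 87.8 to 109 CPM in TIMP2 KO males (median 97.4) and 98.7 to 112 CPM in WT males (median 107). The value of 87.8 CPM was again that of TIMP2 KO replicate 9, and the other TIMP2 KO males lay between 94.3 and 109 CPM. The TIMP2 KO and WT females overlapped more closely, at 102 to 121 CPM (median 108.0) in TIMP2 KO and 103 to 115 CPM (median 109) in WT mice. In males alone the log2 fold change of Kcnj9 was -0.11 ± 0.042 (exact two-sided permutation test, p = 0.0164), and 5 of 6 TIMP2 KO males lay below the WT male median.

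The count for the interaction changed without TIMP2 KO replicate 9. Without this mouse 0 of 55 channel genes had an unadjusted p under 0.05 for the interaction, against 2.55% of all genes. Its values were -0.16 ± 0.084 for Kcnj6 (unadjusted p = 0.0735), -0.12 ± 0.072 for Cacna1h (unadjusted p = 0.119) and 0.098 ± 0.054 for Kcnj9 (unadjusted p = 0.0787), all on the log2 scale. In males alone without it, the log2 fold change was 0.019 ± 0.053 for Kcnj6, -0.011 ± 0.048 for Cacna1h and -0.081 ± 0.040 for Kcnj9 (unadjusted p = 0.0522 for Kcnj9, edgeR's quasi-likelihood test). Without the 5 mice with high Ttr, the interaction had an unadjusted p under 0.05 for 3 of 55 genes, Kcnj6, Kcnj9 and Kcnip3, against 2.10% of all genes.

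**Figure D4:**
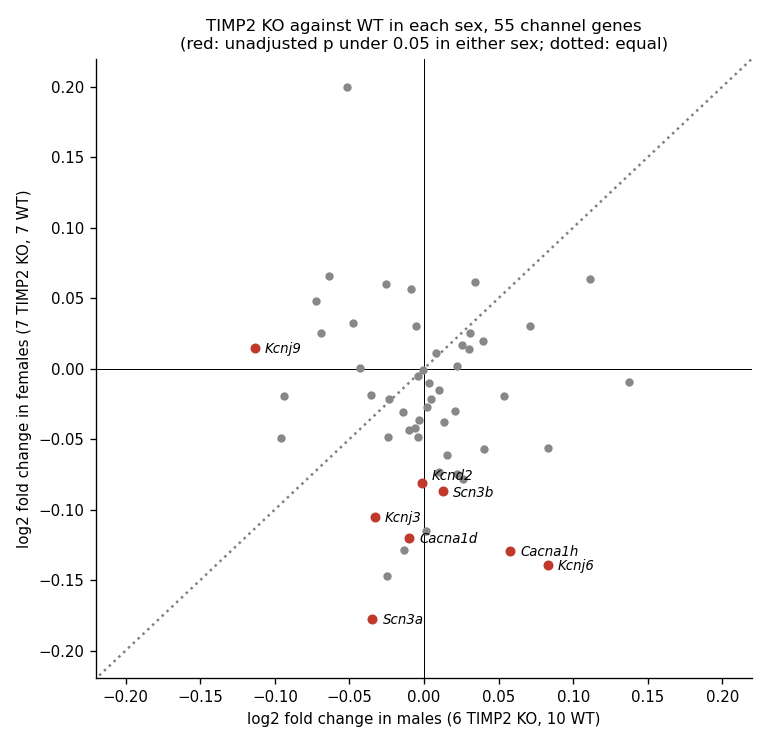
Log2 fold change of TIMP2 KO against WT in females (7 and 7 mice) plotted against that in males (6 and 10 mice) for the 55 channel genes. The 7 genes called in females lie below 0 on the female axis, and Kcnj6 and Cacna1h lie on the positive side in males (0.083 and 0.058, against 0.019 and -0.011 without TIMP2 KO replicate 9).

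The sexes themselves differed in the level of 10 of 55 channel genes (18.2%) at an unadjusted p under 0.05, in a model with sex and genotype, against 9.77% of all genes, and DESeq2 gave 10 as well. Of these, 6 of 55 (10.9%) were higher in females, against 5.14%, and 4 of 55 (7.27%) were lower, against 4.63%. None (0 of 55) had an adjusted p under 0.05 in edgeR's quasi-likelihood test, against 0.218% of all genes. Kcnj9 was closest, with 102 to 121 CPM in females (median 108) and 87.8 to 112 CPM in males (median 104). Of the 14 females, 12 lay above the male median, and the log2 fold change was 0.10 ± 0.029 (adjusted p = 0.185). Higher in females were also Kcna4 (0.15 ± 0.057), Kcnn3 (0.13 ± 0.059), Kcnip3 (0.057 ± 0.025), Kcnh3 (0.055 ± 0.025) and Kcna6 (0.049 ± 0.024), all of them potassium channel genes.

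Lower in females were Scn4b (-0.17 ± 0.081), Cacna2d3 (-0.083 ± 0.031), Scn1a (-0.078 ± 0.033) and Cacnb1 (-0.055 ± 0.025), all of them sodium or calcium channel genes. When each of the 30 mice was left out in turn, only Kcnj9, Kcna4, Scn1a and Cacna2d3 were called in every fit. The call was lost in 19 fits for Kcna6, 12 for Scn4b, 9 for Kcnn3, 7 for Cacnb1, 6 for Kcnh3 and 4 for Kcnip3. Scn4b had the larger SD in males, at 25.3 ± 5.74 CPM (SD, n = 16) against 22.6 ± 1.72 CPM (SD, n = 14) in females. The male mean was 24.2 ± 3.53 CPM (SD, n = 15) without TIMP2 KO replicate 9. Without that mouse the log2 fold change of Scn4b was -0.086 ± 0.059 (unadjusted p = 0.1495, edgeR's quasi-likelihood test), and 5 of 55 channel genes differed between the sexes (Scn1a, Cacna2d3, Kcna4, Kcnh3 and Kcnj9, against 10.3% of all genes). Without the 5 mice with high Ttr, 8 of 55 channel genes (14.5%) differed between the sexes, against 8.52% of all genes; Cacnb1, Kcnn3 and Kcna6 were no longer called and Kcnc4 was.

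Since a dissected hippocampus holds several regions and cell types in varying proportion, the level of each channel gene was also compared across the 30 mice with the mean log2 CPM of 13 lists of marker genes. Of the 715 pairs of gene and list, 20 had an adjusted permutation p under 0.05 for Pearson's r (100000 resamples, Benjamini-Hochberg over all 715) and 16 for Spearman's rho. The 20 pairs concerned 20 different genes, had the same sign within TIMP2 KO and within WT mice, and had the same sign within females and within males. The pairs were picked over these same 30 mice, so the equal signs give no separate support. Without the 5 mice with high Ttr, 13 pairs had an adjusted p under 0.05. By list, 6 were with neuron markers, 4 with CA1 pyramidal cell markers and 3 with CA3 and CA2 pyramidal cell markers. A further 2 each were with dentate granule cell, GABAergic interneuron and oligodendrocyte markers, and 1 was with the immediate early genes. Some channel genes, among them Cacna1e and Scn8a, also moved with the order of the samples, and its part in these relations was not tested.

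Scn1a followed the CA1 pyramidal cell markers most closely (r = 0.758, rho = 0.776, permutation p = 1e-05 for both, the smallest that the resamples can give, adjusted p = 0.00358 and 0.00238). The r was 0.665 within TIMP2 KO mice, 0.856 within WT mice and 0.748 without the 2 mice farthest from the median of the markers. Kcnh7, an EAG family subunit, followed the same markers (r = 0.703, adjusted p = 0.00358, rho = 0.669, adjusted p = 0.00715), with 0.874 within TIMP2 KO, 0.535 within WT and 0.593 without the 2 mice. Kcnab1 did so too (r = 0.630, rho = 0.618), with 0.803 within TIMP2 KO, 0.468 within WT and 0.563 without the 2 mice. The promoters of Scn1a and Kcnh7 are shown here because the levels of both genes moved with these markers. They are given in the same way as those of Kcnn1, from RefSeq on GRCm38.p6, with GGGCGG on either strand in capitals.

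Kcnh7, chr2:63184238-63184537, minus strand: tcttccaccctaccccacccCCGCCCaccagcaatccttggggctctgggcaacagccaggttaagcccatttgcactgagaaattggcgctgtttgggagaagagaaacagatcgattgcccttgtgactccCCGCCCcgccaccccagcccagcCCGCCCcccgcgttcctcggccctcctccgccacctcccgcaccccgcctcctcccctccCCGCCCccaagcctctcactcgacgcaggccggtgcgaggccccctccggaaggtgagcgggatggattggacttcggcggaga
Scn1a, chr2:66440788-66441087, minus strand: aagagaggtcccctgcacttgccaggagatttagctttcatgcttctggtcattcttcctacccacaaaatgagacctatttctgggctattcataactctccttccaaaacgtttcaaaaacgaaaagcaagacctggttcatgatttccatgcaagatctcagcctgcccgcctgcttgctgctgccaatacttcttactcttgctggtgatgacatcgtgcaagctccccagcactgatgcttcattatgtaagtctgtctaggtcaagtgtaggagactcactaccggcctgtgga

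The promoters of both genes differed in composition. That of Kcnh7 had a GC content of 67.7% with 4 GC boxes, and that of Scn1a had 47.3% with 0. Neither held TATAAA or TGACGTCA.

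Kcnip1, a KChIP of interneurons, followed the GABAergic interneuron markers (r = 0.685, adjusted p = 0.00358, rho = 0.710, adjusted p = 0.00715), with 0.809 within TIMP2 KO and 0.622 within WT mice and 0.596 without the 2 mice farthest from the median. Kcnab2 (r = 0.713, rho = 0.766) and Cacna1a (r = 0.668, rho = 0.750) followed the general neuron markers, with 0.762 and 0.753 within TIMP2 KO, 0.713 and 0.673 within WT, and 0.637 and 0.696 without the 2 mice. Kcnd3 ran against the oligodendrocyte markers (r = -0.649, rho = -0.680), with -0.673 within TIMP2 KO, -0.620 within WT and -0.649 without the 2 mice. Kcna4 ran against the CA3 and CA2 markers (r = -0.650, rho = -0.628), with -0.767 within TIMP2 KO, -0.584 within WT and -0.520 without the 2 mice. The adjusted p of the r and rho of these 4 pairs was 0.0241 or lower.

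The relations with dentate granule cell markers were less even. Scn3a had r = 0.654 (permutation p = 8e-05, adjusted p = 0.00804), but rho = 0.490 (permutation p = 0.00664, adjusted p = 0.104). The r was 0.743 within WT mice, 0.214 within TIMP2 KO mice and 0.486 without the 2 mice farthest from the median, so the relation was weak among the TIMP2 KO mice. Kcnj3 had r = 0.620 (adjusted p = 0.0172) and rho = 0.538 (adjusted p = 0.0754), with 0.657 within WT, 0.379 within TIMP2 KO and 0.459 without the 2 mice. Kcnn1 had no pair with an adjusted p under 0.05; its largest r was 0.341 with the immediate early genes (permutation p = 0.0655, adjusted p = 0.306). Of these immediate early genes, 10 of 12 were higher in TIMP2 KO mice at an unadjusted p under 0.05, with a median log2 fold change of 0.39, and their part in the levels of the channel genes was not tested.

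**Figure D5:**
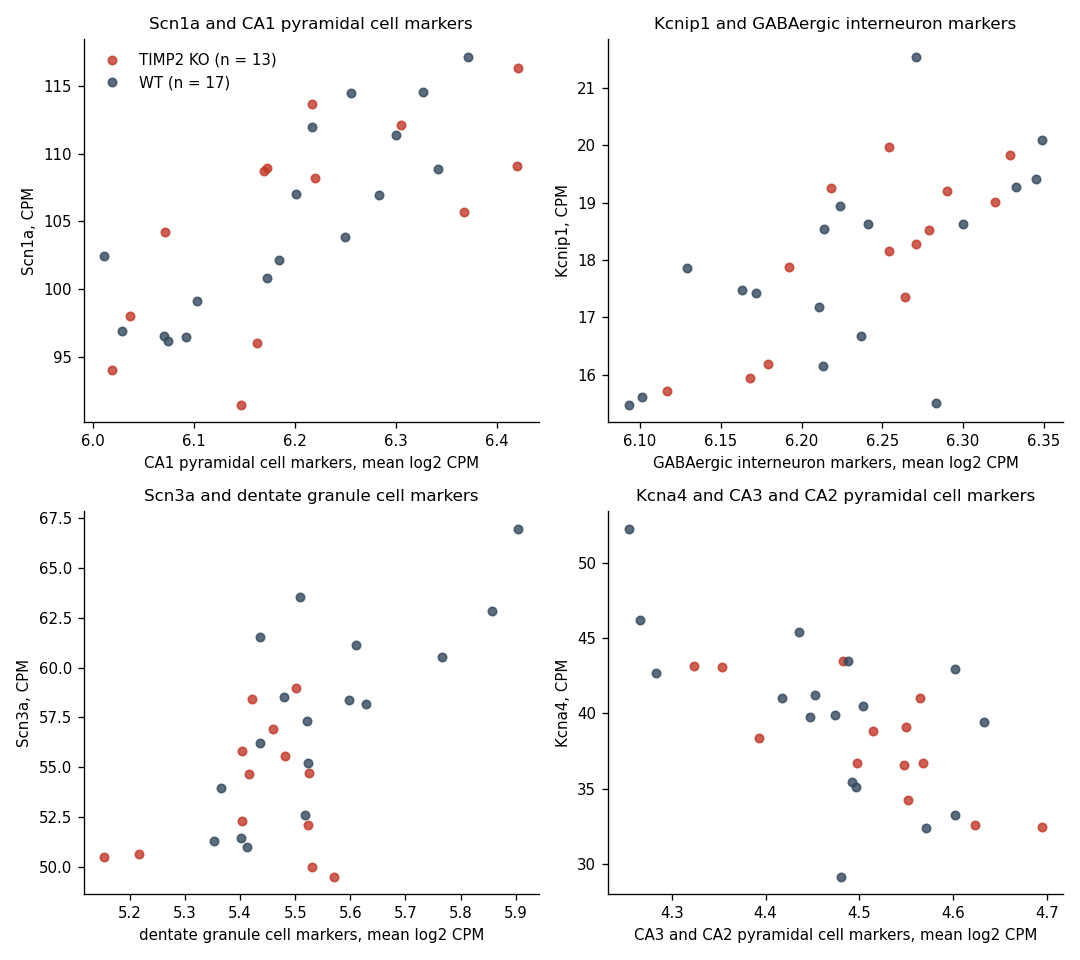
CPM of Scn1a, Kcnip1, Scn3a and Kcna4 in each of the 30 mice plotted against the mean log2 CPM of the CA1 pyramidal cell, GABAergic interneuron, dentate granule cell and CA3 and CA2 pyramidal cell markers. Pearson's r is 0.758, 0.685, 0.654 and -0.650 in this order, and the points of TIMP2 KO and WT mice intermingle except at the ends of the dentate granule cell axis.

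Of 74 further channel genes, 53 passed the filter, and 0 were lower and 1 was higher at an unadjusted p under 0.05 (1.89% called, against 5.03% of all genes), with a median log2 fold change of 0.001. The one higher was Kcnh2, the pore of the rapid delayed rectifier, at 27.2 ± 1.73 CPM in TIMP2 KO and 26.0 ± 1.44 CPM in WT mice (0.066 ± 0.032, unadjusted p = 0.0477, adjusted p = 0.980, edgeR's quasi-likelihood test). Of 28 genes for proteins that anchor or modify channels, 27 passed the filter, and 1 was lower and 0 were higher (3.70% called, against the same 5.03%). Without the 5 mice with high Ttr, 2 of the 53 further channel genes were lower and 1 was higher, and 0 of the 27 were called, against 2.29% of all genes lower and 2.10% higher. The partner gene called over all mice was Amigo1, an adhesion protein that associates with Kv2 channels, at 115 ± 3.00 and 118 ± 3.87 CPM (-0.038 ± 0.018, unadjusted p = 0.0439, adjusted p = 0.980).

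Some channel genes share exon sequence with a neighbour. The exons of 34 of the 55 overlap no other annotated exon. More than 15% of the exon bases are shared with a gene on the opposite strand for Kcna6 (39.6%), Kcnmb4 (31.5%), Kcnj3 (31.1%), Hcn3 (17.1%) and Cacnb4 (16.0%), whose values may hold reads of the neighbour if the counting did not use strand. The channel genes were also longer than the other genes tested, with a median exon length of 7633 bases against 4185 and a median span of 155 kb against 22.3 kb.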

How the data were processed

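Poly(A)-selected RNA of 1 hippocampal sample from each of 30 mice was sequenced. Per the labels, the authors trimmed reads with Trimmomatic 0.36, aligned them to GRCm38 with STAR 2.5.2b and deposited raw counts per gene without normalization. featureCounts of Subread 1.5.2 is also listed in the submitters' processing notes. All columns were matched to a mouse. Replicate numbers were given in accession order and pair no mice.

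Library sizes were scaled by TMM, genes were kept by filterByExpr, and genotypes were compared in edgeR 4.0.16 (R 4.3.3) by the quasi-likelihood test without covariates, as both sexes were pooled in the study. The threshold was the study's unadjusted p under 0.05, with Benjamini-Hochberg values over all genes beside it. Log2 CPM used a prior count of 2. SE and 95% intervals are from the fit. Exon lengths and positions are from GENCODE M21 on GRCm38. On simulated counts with 16486 genes for 13 and 17 mice, 81% of genes simulated with a log2 difference of 0.5 and 100% of those with 1 had an adjusted p under the threshold. Counts were drawn independently for each gene, and no difference as small as those fitted for the channel genes was simulated. These shares therefore do not give the sensitivity at such sizes. Biological variation between mice (a common coefficient of 7.52%) limits the precision of well-covered genes more than counting error does.

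The channel genes, marker lists and tests were chosen with earlier results of these data known. All members may be named, with full statistics for those with an unadjusted p under 0.05, at most 10 further channel or partner genes by smallest p, and at most 10 correlations by largest r. Others were named after their values were seen. Alternatives were DESeq2 1.42.0, RLE factors, other filters (none, or 10 counts or more in each mouse), covariates (sex, or sex and 8 surrogate variables from sva 3.50.0), each sex alone, limma 3.58.1 voom with sample weights, and leaving out each mouse in turn. Leaving out the 5 mice with Ttr over 30 CPM, leaving out each mouse in the models with sex, and leaving TIMP2 KO replicate 9 out of the males were added after the data were seen. Harvest dates are not in the labels and could not be fitted. Protein sequences were not used here.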

Additional observations from a re-analysis of the deposited data

Results flagged for a closer look

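The interaction of sex and genotype (KO minus WT, females minus males) was tested in edgeR's quasi-likelihood test. It had an unadjusted p under 0.05 for 3 of 55 channel genes (5.45%), against 2.57% of all genes. For the GIRK subunit Kcnj6 the interaction was -0.222 on the log2 scale (SE 0.092, unadjusted p = 0.0214), with log2 fold changes of -0.14 in females, where 6 of 7 TIMP2 KO mice lay below the WT median, and 0.083 in males, where 5 of 6 lay above it. For the T-type calcium channel gene Cacna1h it was -0.188 (SE 0.084, unadjusted p = 0.0319), with -0.13 in females, 7 of 7 below the WT median, and 0.058 in males, 4 of 6 above it. For the GIRK subunit Kcnj9 it was 0.128 (SE 0.056, unadjusted p = 0.0298), with 0.014 in females and -0.11 in males. The adjusted p was 1.00 for each of these, so no interaction passed the adjustment. Without the 5 mice with high Ttr the interactions were -0.25 for Kcnj6 (unadjusted p = 0.0134), -0.16 for Cacna1h (unadjusted p = 0.0964) and 0.14 for Kcnj9 (unadjusted p = 0.0275). The KChIP gene Kcnip3 was also under the threshold (0.14, unadjusted p = 0.0105), so that the count was again 3 of 55, against 2.10% of all genes. Without TIMP2 KO replicate 9, a male with 52.5 CPM of Kcnj6 and 130.1 CPM of Cacna1h, the count was 0 of 55, against 2.55% of all genes. The interactions were then -0.16 for Kcnj6 (unadjusted p = 0.0735), -0.12 for Cacna1h (unadjusted p = 0.119) and 0.098 for Kcnj9 (unadjusted p = 0.0787). Samples far from the rest of their group were not searched for by a formal rule, since the groups held 13 and 17 mice.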

How the results depend on the processing

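The count of channel genes with an adjusted p under 0.05 was 0 in each of the alternatives. At an unadjusted p under 0.05, the count lower in TIMP2 KO mice, 1 in the comparison as reported, was 2 without a filter, with at least 10 counts in every mouse, with sex as a covariate and with limma voom, 3 with sex and 8 surrogate variables, and 7 in females alone. The count higher, 1 as reported, was 0 with sex and 8 surrogate variables, with limma voom and in each sex alone. Of all genes, 5.03% were called in either direction as reported. The share was 3.24% in males alone, 5.00% in females alone, 5.82% with limma voom and 7.07% with sex and 8 surrogate variables. Leaving out each mouse in turn gave 1 to 5 lower, 0 to 1 higher and 0 adjusted. The share of all genes called in these fits ran from 4.3% (without WT replicate 7) to 5.8% (without TIMP2 KO replicate 8). The count lower was 5 without TIMP2 KO replicate 9, 3 without TIMP2 KO replicate 13 or WT replicate 6, and 2 without TIMP2 KO replicate 4, 5, 8 or 12 or WT replicate 1, 2, 4, 8, 10, 13 or 14. The genes added in these were Kcnab1, Kcnd2, Kcnd3, Kcnj3 and Scn3b. The cause of these changes was not tested. Scn3a kept an unadjusted p under 0.05 in 8 of 9 alternatives other than leaving out mice, with males alone as the exception (0.458), and Kcnn1 in 5 of 9. The number of correlations with an adjusted p under 0.05, 20 over all mice, was 3 within TIMP2 KO mice, 1 within WT mice, which hold fewer mice, 10 without the 2 mice farthest from the median of a list and 13 without the 5 mice with high Ttr. The count of channel genes with an interaction of sex and genotype, 3 as reported (against 2.57% of all genes), was 0 to 6 when each mouse was left out. It was 0 without TIMP2 KO replicate 9 (2.55% of all genes), 6 without TIMP2 KO replicate 5 or WT replicate 11, and 5 without WT replicate 10, 12, 15 or 16. The count of channel genes that differed between the sexes, 10 as reported (against 9.77% of all genes), was 5 to 13, with 5 without TIMP2 KO replicate 9 (10.3%). For the other fits of the interaction and of sex with a mouse left out, the shares of all genes are not given here. No paired analysis was possible because the replicate numbers were given in accession order. Harvest date, exact age and the strand of counting could not be examined, and with 13 and 17 mice the 95% interval had a median half-width of 0.072 (log2).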

Other observations

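The 55 channel genes did not vary independently across mice. The first principal component of their log2 CPM, each gene scaled to unit variance, held 27.5% of their variance over the 30 mice. Scn8a (r = 0.951 with the component), Kcnq3 (0.923), Cacna1a (0.842), Kcnj6 (0.832) and Kcna2 (0.822) followed it most closely, and 13 genes had r over 0.7. Hcn3 (-0.487), Kcnip3 (-0.470), Kcnj9 (-0.407), Kcnc4 (-0.404) and Kcna4 (-0.384) were among the 9 genes that ran against it. The 7 genes called lower in females all ran with it, with r between 0.522 (Scn3a) and 0.832 (Kcnj6). The 13 genes had a median exon length of 12732 bases and the 9 genes one of 4288 bases. Across the 55 genes, which are not independent replicates, r with the component and log2 exon length had a Pearson correlation of 0.66. The component spanned -0.307 to 0.413 in TIMP2 KO mice (median -0.082) and -0.232 to 0.285 in WT mice (median 0.055), with broad overlap. It also moved with the order of the samples. It was below 0 in each of replicates 1 to 6 of both genotypes (-0.307 to -0.0355), and spanned -0.0907 to 0.413 in the later replicates. Cacna1e was at 244 to 286 CPM in the former and 269 to 400 CPM in the latter. What this order stands for is not given in the labels. For its co-expression network analysis the study adjusted expression for isolation or harvest date, which it named a significant source of variation. Whether the order follows these dates is not known, since the labels do not hold them. The part of the order in the results was not tested.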
